A study of Mus musculus with 32 samples.

Results

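Livers of mice with an intact Rps6 gene, taken 40 h after partial hepatectomy, were compared with livers of the same genotype at 0 h. The livers were selected by their labels alone, 4 at each time, which made 8 of the 32 arrays in the series. All mice were 3-month-old C57BL/6 males homozygous for a floxed Rps6 allele (Rps6 encodes S6, a protein of the small ribosomal subunit). The Cre minus mice described here lacked the Mx-Cre transgene, so nothing in their genotype deletes the gene. Cre plus mice carried that transgene, a Cre recombinase under an interferon-responsive promoter, and their deletion was induced with polyinosinic-polycytidylic acid. The labels do not say whether Cre minus mice were injected too, name no sham operation, and do not state that each liver came from its own mouse, so p-values may reflect technical spread alone. Of the livers at 0 h, B and D belonged to labelled batch PHX2 and A and C to PHX3. At 40 h liver D belonged to PHX2 and livers A, B and C to PHX3. The other groups used were Cre minus at 20 h and 30 h (4 livers each) and Cre plus at 0 h (4) and 40 h (5).

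Partial hepatectomy removes part of the liver, and the remaining hepatocytes, which rarely divide in the adult, leave quiescence and pass through DNA replication and mitosis in a wave. Entry into S phase is driven largely by E2F transcription factors once cyclin D kinases have inactivated the retinoblastoma proteins, and mitotic genes follow through CHR promoter elements bound by the DREAM and MuvB complexes and through NF-Y at CCAAT boxes. The liver meanwhile keeps up plasma protein, bile acid, urea and lipid metabolism, and it mounts an acute phase response to surgery.

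Values were log2 RMA expression from a 1-colour oligonucleotide array, on which a difference of 1 is 2-fold, and a level was never set against that of another gene. Replicates at 0 h correlated with their own group at 0.990 to 0.991 and those at 40 h at 0.978 to 0.986. The median SD of a probe set among 4 livers was 0.114 at 0 h and 0.158 at 40 h. The difference between 3′ and 5′ Actb control probe sets, a sign of RNA quality, was 0.89 to 1.07 at 0 h and 0.94 to 1.12 at 40 h. The Rps6 probe set, shared with a pseudogene (Rps6-ps4), read 11.03, 11.16, 11.27 and 10.99 at 0 h and 11.34, 11.48, 11.23 and 11.36 at 40 h in livers A to D. These 8 values lay far above those of Cre plus livers, which were 6.81 ± 0.44 (SD, n = 4) at 0 h. The difference over 40 h was 0.18 ± 0.15 (SE, adjusted p = 0.613). Albumin (Alb) read 13.76 to 13.79 at 0 h and 13.69 to 13.76 at 40 h, and the 12 tested hepatocyte markers averaged 11.39 to 11.60 at 0 h and 11.50 to 11.69 at 40 h, as the liver label requires.

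At 40 h many genes of DNA replication and mitosis, 2 metallothioneins and several acute phase genes were higher than at 0 h. Lower were 7 of 18 cholesterol genes, 4 of 23 of fatty acid synthesis, 3 of 19 of bile acid metabolism and 6 of 37 interferon response genes, counts that dropped when single livers were left out, as given below. The criterion for a call was an adjusted p under 0.05 in limma (Benjamini-Hochberg over all probe sets tested). Of 9249 probe sets tested, 441 were called (4.77%), 215 higher (2.32%) and 226 lower (2.44%). Those at least 2-fold higher numbered 69 (0.746%) and those at least 2-fold lower 32 (0.346%). All 4 livers at 40 h lay above all 4 at 0 h for 203 of the 215 higher probe sets, and for 577 of all those tested (6.24%). They lay below for 211 of the 226 lower probe sets, and for 826 of all those tested (8.93%). The median difference over all probe sets was -0.002. Over the 6786 genes tested, each by its probe set of highest mean level, 171 were higher (2.52%) and 183 lower (2.7%), the background against which the lists below are read. The count of 441 fell to 241 without liver A at 0 h, to 248 without liver C at 0 h and to 291 without liver B at 40 h. Signs within each batch come from the livers that made the calls, so agreement was largely fixed in advance and is no replication. Within PHX3 every called probe set kept its direction. Within PHX2, where 1 liver at 40 h met 2 at 0 h, 214 of the 215 and 226 of the 226 did.

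**Figure D1:**
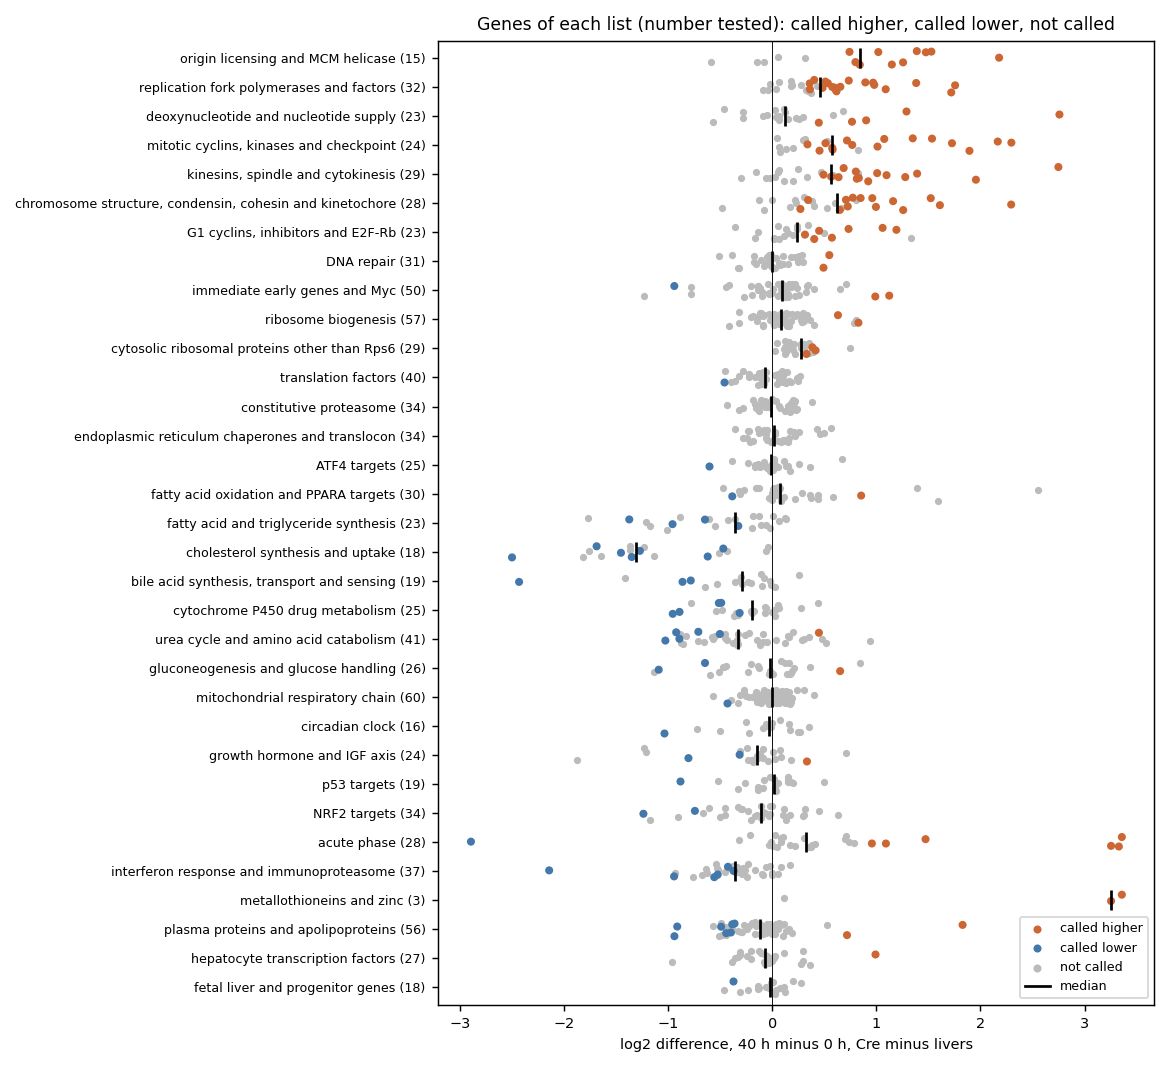
Log2 difference, 40 h minus 0 h, of every tested gene in each gene list (rows, with the number tested). Orange points were called higher, blue points called lower and grey points were not called, and the black bar is the median of the list. The lists of licensing, replication fork, mitosis, spindle and chromosome genes had medians between 0.46 and 0.84, and the cholesterol list had a median of -1.31.

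The promoters of 4 genes that the account of the cell cycle turns on are shown first, because they carry the letters of the elements named above. They were the 4 members of the replication and mitosis lists with the greatest rise among those whose 300-base window, from 250 bases before to 50 after the annotated start, held a motif. For promoters a gene counted as called if any of its probe sets was called, whereas the list counts use its brightest probe set alone. By that wider rule 189 genes were called higher, and only 157 of them had a window. Genes without one, Stmn1 and H2ax among them, could not be chosen. That restriction to the cell cycle lists was chosen after the values had been seen. Sequences are from RefSeq on GRCm38.p6, on the strand of the gene, 5′ to 3′, with matches in capitals. The letters searched, on both strands, were TTTCCCGC or TTTGGCGC or TTTCGCGC or TTTGCCGC for E2F, then TTTGAA for the CHR, and CCAAT for the CCAAT box (read as ATTGG on the other strand). In Mcm5 the matches of TTTCGCGC and, on the other strand, of TTTGGCGC overlap.
Rrm2, chr12:24708004-24708303, plus strand: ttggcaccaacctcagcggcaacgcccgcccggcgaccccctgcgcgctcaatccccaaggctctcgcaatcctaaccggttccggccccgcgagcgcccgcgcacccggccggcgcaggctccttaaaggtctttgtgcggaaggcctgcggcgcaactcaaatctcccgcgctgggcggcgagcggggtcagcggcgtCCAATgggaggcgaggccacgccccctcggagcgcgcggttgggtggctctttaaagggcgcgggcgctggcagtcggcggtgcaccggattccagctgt
Cdk1, chr10:69352863-69353162, minus strand: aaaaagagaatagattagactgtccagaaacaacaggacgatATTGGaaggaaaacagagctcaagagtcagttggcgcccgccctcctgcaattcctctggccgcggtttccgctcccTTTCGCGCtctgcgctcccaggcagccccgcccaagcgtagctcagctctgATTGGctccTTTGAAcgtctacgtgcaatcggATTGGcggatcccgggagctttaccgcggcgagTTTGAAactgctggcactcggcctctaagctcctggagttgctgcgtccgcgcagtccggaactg
Mcm5, chr8:75109259-75109558, plus strand: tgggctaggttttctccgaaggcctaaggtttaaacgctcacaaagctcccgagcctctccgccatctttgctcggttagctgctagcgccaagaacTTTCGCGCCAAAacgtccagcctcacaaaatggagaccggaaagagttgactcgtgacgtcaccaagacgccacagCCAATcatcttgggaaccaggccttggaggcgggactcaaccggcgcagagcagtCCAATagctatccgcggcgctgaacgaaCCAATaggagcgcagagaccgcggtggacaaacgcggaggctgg
Cdc20, chr4:118437294-118437593, minus strand: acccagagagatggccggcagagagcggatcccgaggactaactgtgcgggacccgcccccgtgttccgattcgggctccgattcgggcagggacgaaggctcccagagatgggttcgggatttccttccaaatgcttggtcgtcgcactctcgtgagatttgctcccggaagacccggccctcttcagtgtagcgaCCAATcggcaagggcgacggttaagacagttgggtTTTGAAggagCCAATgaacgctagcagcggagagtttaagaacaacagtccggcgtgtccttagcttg
Cdk1 held 1 E2F match, 2 CHR matches and 3 CCAAT boxes. Mcm5 held 2 E2F matches and 3 CCAAT boxes, and Cdc20 held 1 CHR match and 2 CCAAT boxes. Rrm2 held 1 CCAAT box and none of the E2F or CHR letters in this window.

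Among all 27025 genes with a window, 2.3% held an E2F match, 18.1% a CHR match and 37.9% a CCAAT box. Of the 5091 genes tested but not called that had a window, 3.5%, 11.7% and 37.8% did. Of the 157 genes called higher with a window, 26 held an E2F match (16.6%), 42 a CHR match (26.8%) and 85 a CCAAT box (54.1%). Of 46 genes of the mitosis lists called higher by any probe set, 33 had a window, and 20 of these held a CHR match (60.6%). CHR and CCAAT box together were held by 18 of these 33 (54.5%), a combination found in 4.9% of genes not called. In the replication lists 38 genes were called higher by any probe set, and 34 of them had a window. Of these 34, 9 held an E2F match (26.5%) and 6 a CHR match (17.6%). Genes called lower held these letters in 2.4%, 11.4% and 45.8% of 166 windows. Median GC content was 59.0% for windows of genes called higher, 58.5% for those called lower and 60.7% for those not called. These shares were not tested, and a match is a description of letters, not a binding site.

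Licensing genes, which load the MCM helicase at origins before replication, were higher at 40 h. Of 15 tested, 10 were called higher and none lower, with a median of 0.84 (median of all genes tested -0.01). Without a filter on dim probe sets 12 of 19 on the array were called higher. Mcm5, a helicase subunit, read 7.49, 7.64, 7.33 and 7.68 at 0 h and 10.08, 9.86, 9.30 and 9.77 at 40 h. Every liver at 40 h was well above every liver at 0 h, and the fitted difference, with batch in the model, was 2.18 ± 0.30 (SE, adjusted p = 3.24e-05), or 4.53-fold. A dimmer probe set of Mcm5 showed 0.15 (adjusted p = 0.524). Cdc6, which loads the helicase together with Cdt1, read 4.55, 4.84, 4.68 and 4.97 at 0 h and 6.16, 5.90, 5.80 and 7.13 at 40 h. Liver D was the highest of the 4, and the difference was 1.53 ± 0.22 (adjusted p = 3.69e-05). Cdt1 rose by 1.26 ± 0.12, and the helicase subunits Mcm4, Mcm3, Mcm7 and Mcm2 rose by 1.48, 1.39, 1.15 and 0.80, each with non-overlapping groups.

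Replication fork genes followed, with 19 of 32 called higher, none lower and a median of 0.46. Of the 32, 3 passed the filter on dim probe sets only through the livers at 40 h, and without that filter 23 of 37 were called higher. Pcna, the sliding clamp that holds DNA polymerases on the template, read 6.89, 6.99, 6.59 and 6.85 at 0 h and 8.77, 8.86, 7.92 and 8.60 at 40 h. These groups were well apart although liver C was the lowest at 40 h, and the difference was 1.72 ± 0.20 (adjusted p = 2.59e-06). The flap endonuclease Fen1, which processes Okazaki fragments, rose by 1.76 ± 0.33 (adjusted p = 0.00122). Rfc4, a subunit of the clamp loader, rose by 1.38, Uhrf1, which brings maintenance methylation to replicated DNA, by 1.09, and Prim1, the catalytic primase subunit, by 0.98. Pclaf, a Pcna-binding protein, rose by 0.97 (adjusted p = 0.000827), but not alike in all livers. Liver D, alone in PHX2 at 40 h, read 4.42, just above the 0 h range of 3.86 to 4.4. Livers A, B and C read 5.09 to 5.63.

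Of 23 genes that supply nucleotides, 5 were called higher, and the median of 0.12 was close to that of all genes. Rrm2, the regulated small subunit of ribonucleotide reductase, had the greatest rise of any cell cycle gene in the lists. It read 4.93, 5.0, 4.65 and 4.77 at 0 h and 8.25, 7.74, 7.39 and 7.02 at 40 h. These groups were far apart, and the difference was 2.76 ± 0.28 (adjusted p = 2.53e-07), or 6.77-fold. Rrm1, the large subunit, rose by 1.29 ± 0.14, although a dimmer probe set of it showed -0.03 (adjusted p = 0.951). Dck, deoxycytidine kinase, rose by 0.90, Ctps, CTP synthase, by 0.77 and Nme2, a nucleoside diphosphate kinase, by 0.45. The thymidine kinase Tk1 differed by 0.58 ± 0.19 (adjusted p = 0.088) and was at 8.83 in liver D against 9.22 to 9.61 in the others. Without liver D it passed (adjusted p = 0.0129). The calls of Dck and Ctps were each lost in at least 4 of the 8 omissions of 1 liver, with adjusted p up to 0.0799 without liver C at 0 h for Dck and 0.0991 without liver D at 0 h for Ctps. The list count of 5 fell to 3 without liver A or C at 0 h or liver A or B at 40 h.

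**Figure D2:**
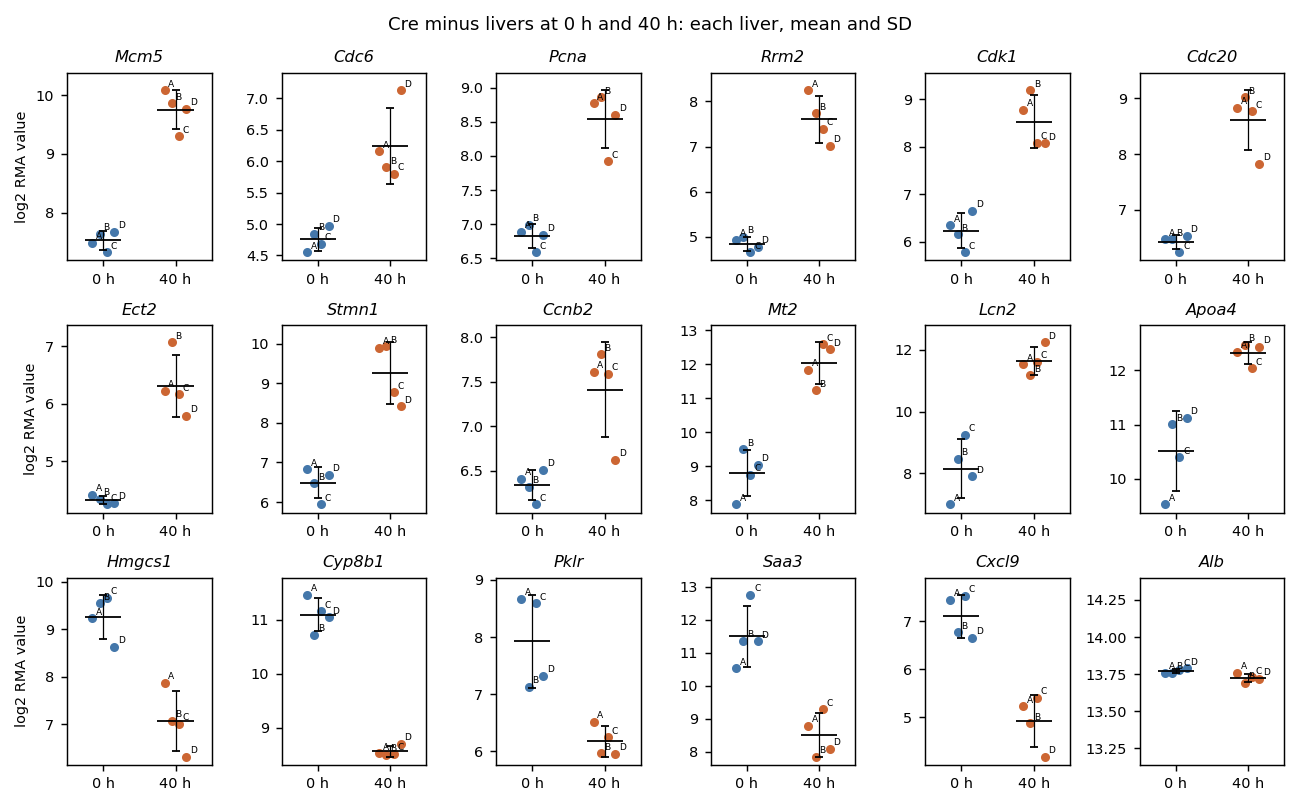
Log2 RMA values of 18 genes in each Cre minus liver at 0 h (blue) and 40 h (orange), with liver letters, the mean (horizontal bar) and SD (error bar, n = 4). The vertical scale differs between panels. Rrm2 at 40 h lay between 7.02 and 8.25, above the 0 h values of 4.65 to 5.0, whereas Alb stayed between 13.69 and 13.79 throughout.

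Mitotic regulators were higher as well: of 24 tested, 15 were called higher and none lower, all 24 differences were above 0, and the median was 0.58. Of these, 2 passed the filter only through the livers at 40 h, and without it 17 of 28 were called higher. Cdk1, the kinase that drives entry into mitosis, read 6.35, 6.16, 5.78 and 6.65 at 0 h and 8.78, 9.19, 8.08 and 8.07 at 40 h. Its lowest value at 40 h exceeded its highest at 0 h by over 1 unit, and the difference was 2.30 ± 0.24 (adjusted p = 3.88e-07), or 4.91-fold. Cdc20, which activates the anaphase-promoting complex, read 6.47, 6.47, 6.24 and 6.53 at 0 h and 8.83, 9.02, 8.77 and 7.83 at 40 h. Liver D was the lowest at 40 h and still above every liver at 0 h, and the difference was 2.17 ± 0.19 (adjusted p = 6.5e-08). The centrosomal kinase Aurka rose by 1.89, the spindle checkpoint protein Mad2l1 by 1.73, the centrosomal kinase Nek2 by 1.53 and Birc5 (survivin, of the chromosomal passenger complex) by 1.35.

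Cyclin B2 (Ccnb2), a partner of Cdk1, read 6.41, 6.32, 6.12 and 6.51 at 0 h and 7.61, 7.81, 7.59 and 6.62 at 40 h. Livers A, B and C stood about 1 unit above the 0 h livers, and liver D stood just above their highest value. The pooled difference was 1.08 ± 0.18 (adjusted p = 0.000388), composed of 1.40 within PHX3 and 0.21 within PHX2. Cyclin A2 (Ccna2), which acts in S and G2 phase, rose by 0.72 ± 0.10 (adjusted p = 1.54e-05). Plk1, a kinase of mitotic entry, rose by 0.58, and its other probe sets by 0.50 and 0.89. Foxm1, the transcription factor that drives many mitotic genes, differed by 0.07 ± 0.08 (adjusted p = 0.7), and its other probe set by 0.30 (adjusted p = 0.0671). Mki67, the gene of the Ki-67 proliferation antigen, differed by 0.22 (adjusted p = 0.488), on a probe set near the dim end of the array.

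Spindle and cytokinesis genes gave 14 of 29 called higher and none lower, with a median of 0.57. Of the 29, 5 passed the filter only through the livers at 40 h, and without it 17 of 33 were called higher. Stathmin (Stmn1), which destabilises microtubules, read 6.83, 6.47, 5.94 and 6.69 at 0 h and 9.90, 9.93, 8.77 and 8.42 at 40 h. These groups did not overlap, and the difference was 2.75 ± 0.32 (adjusted p = 2.47e-06), whereas a dimmer probe set of Stmn1 showed 0.08 (adjusted p = 0.854). Ect2, the exchange factor that turns on RhoA for the cleavage furrow, read 4.25 to 4.42 at 0 h and 6.23, 7.07, 6.17 and 5.79 at 40 h, a difference of 1.96 ± 0.23 (adjusted p = 2.02e-06). Kif2c, a microtubule-depolymerising kinesin, rose by 1.28 and Cdca8 (borealin) by 1.1. Prc1, which bundles midzone microtubules, rose by 1.01, but by 1.29 within PHX3 and 0.27 within PHX2. The tubulin Tubb6, read by a probe set of the _f_at type that can match related sequences, rose by 1.39, a call lost without liver B at 40 h (adjusted p = 0.0589), liver D at 0 h (0.058) or liver B at 0 h (0.0504).

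Chromosome structure genes gave 14 of 28 called higher, none lower and a median of 0.63. Of the 28, 4 passed the filter only through the livers at 40 h, and without it 17 of 36 were called higher. H2ax, a histone H2A variant phosphorylated at DNA breaks, read 6.70, 7.02, 6.72 and 7.12 at 0 h and 9.84, 9.71, 8.93 and 8.29 at 40 h. All livers at 40 h were above all at 0 h, and the difference was 2.29 ± 0.30 (adjusted p = 1.11e-05). The condensin subunits Smc2, Smc4 and Ncaph rose by 1.61, 1.52 and 1.0. Topoisomerase Top2a, which untangles sister chromatids, rose by 1.16 and the histone variant H2az1 by 1.26.

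Regulators of G1 moved less than the licensing, fork, mitosis, spindle and chromosome lists, though their median was above that of nucleotide supply (0.12). Of 23 tested, 7 were called higher and none lower, with a median of 0.24. The 7 fell to 4 without liver A or B at 0 h or liver A at 40 h. Of the 23, 1 passed the filter on dim probe sets only through the livers at 40 h. Without that filter 8 of 29 were called higher. The E2F partner Tfdp1 rose by 1.19 ± 0.27, E2f8 by 1.06 ± 0.28, the CDK4/6 inhibitor Cdkn2c by 0.73 ± 0.13, the retinoblastoma relative Rbl1 by 0.57 ± 0.13 and E2f1 by 0.40 ± 0.11. Dimmer _f_at probe sets of Tfdp1 and E2f8 showed 0.73 and 1.14 without a call. Another probe set of E2f1 was also called higher, by 0.61. Cdkn2c rose by 0.99 within PHX3 and 0.18 within PHX2. Calls of E2f1 (its probe set at 0.40), E2f8 and Tfdp1 were lost in 7, 4 and 1 of the 8 omissions of 1 liver. Adjusted p reached 0.0938 for E2f1 and E2f8 without liver A at 40 h, and 0.0537 for Tfdp1 without liver A at 0 h. Cyclin D1 (Ccnd1), which starts the passage through G1, read 6.74, 7.24, 7.23 and 7.18 at 0 h and 8.49, 8.58, 8.21 and 8.97 at 40 h. Its groups did not overlap, yet the fit, which shares its spread with livers at other times, gave 1.33 ± 0.55 (adjusted p = 0.197). A dimmer probe set of it showed 0.14. Cyclin E1 (Ccne1) differed by 0.15 (adjusted p = 0.471), Cdk4 by 0.34 (adjusted p = 0.184) and the CDK inhibitor Cdkn1a (p21) by 0.50 (adjusted p = 0.515).

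Of 31 DNA repair genes 2 were called higher, Brca2 (0.55) and Rad51ap1 (0.49), both of homologous recombination, and the median was 0.00. The recombination factor Fignl1, in none of these lists, read 5.07, 5.34, 4.99 and 5.31 at 0 h and 7.19, 6.70, 6.76 and 7.47 at 40 h. All livers at 40 h were above all at 0 h, by 1.86 ± 0.21 (adjusted p = 1.19e-06), although its other, brighter probe set showed -0.01 (adjusted p = 0.985). The greatest rise on the array was that of D17H6S56E-5, a mouse chromosome 17 transcript, which read 3.73, 4.29, 3.60 and 4.23 at 0 h and 8.59, 7.62, 7.63 and 6.28 at 40 h (3.52 ± 0.50, adjusted p = 4.1e-05). Other probe sets of genes with known cell cycle roles, named here after their values had been seen, were those of Tcf19 (1.42), the mitotic kinesin Kif20a (1.30), the spindle protein Nusap1 (1.28), the ubiquitin ligase receptor Dtl that targets Cdt1 (1.13), the centriole duplication kinase Plk4 (1.12) and the importin Kpna2 (1.1), all called higher. Kpna2 lost its call without liver A at 0 h (adjusted p = 0.0564) or liver B at 40 h (0.051). Kif20a and Nusap1 are members of the spindle list, where they counted as not called, because their brightest probe sets showed 0.33 and 0.02. The values of 1.30 and 1.28 come from dimmer probe sets.

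The 4 livers at 40 h were not alike in how far these gene groups had moved. Averaged over the 10 licensing genes called higher, livers A, B, C and D read 7.47, 7.38, 7.09 and 7.73, against 6.08 to 6.27 at 0 h. Liver D was the highest for 6 of these 10 genes. Among the members called higher in the other replication lists, liver A had the highest averages. The 19 fork genes called higher averaged 6.59, 6.46, 6.23 and 6.47 in livers A to D. Over all 32 fork genes tested, livers A and D each averaged 6.73. Liver D was the highest for 13 of them and liver A for 9. The 5 nucleotide genes called higher averaged 8.73, 8.56, 8.26 and 8.40. Averaged over the 15 mitotic regulators called higher, the same livers read 7.01, 7.07, 6.90 and 6.60, against 5.61 to 5.91 at 0 h. There liver D was the lowest for 11 of 15 genes. For the 14 spindle genes called higher, liver B was the highest for 12 and liver D the lowest for 12, with averages of 6.76, 7.02, 6.69 and 6.38. Liver D was the only one of the 4 in PHX2, so liver and batch cannot be told apart. The livers were chosen by no outcome, but the genes averaged were those called from these same livers. These values are descriptions, and no test was made between livers.

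**Figure D3:**
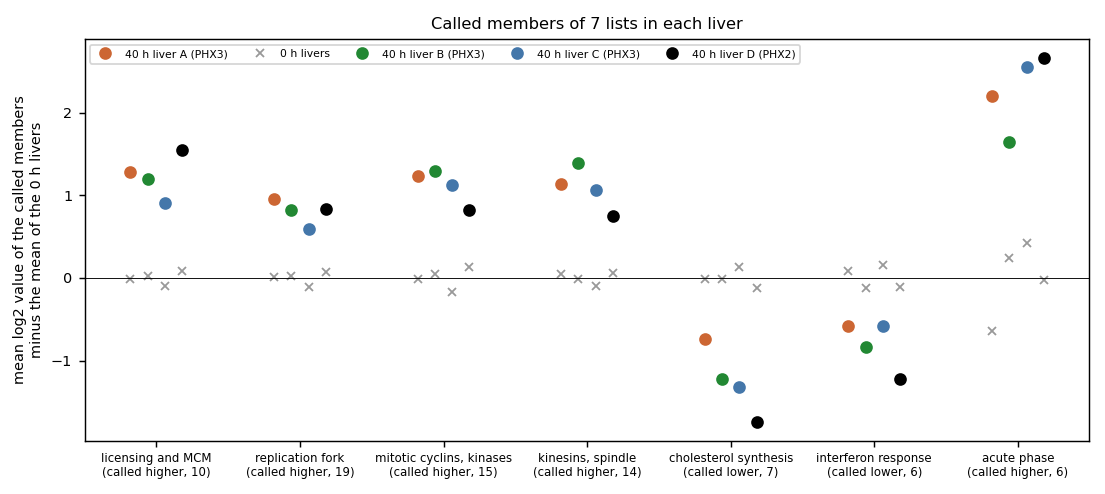
Mean log2 value of the called members of 7 gene lists in each liver at 40 h (coloured points) and at 0 h (grey crosses), minus the mean of the 0 h livers. For the 10 licensing genes liver D (black) lay at the top of the 40 h livers, and for the 19 fork genes liver A did. For the 15 mitotic and 14 spindle genes liver D lay at the bottom. For the 7 cholesterol genes called lower liver A fell least and liver D most.

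Immediate early genes, which mark the first hours after surgery, gave 2 of 50 called higher and 1 lower, with a median of 0.09. The higher ones were the acute phase transcription factors Cebpd (1.12 ± 0.26, adjusted p = 0.0106) and Cebpb (0.99 ± 0.20, adjusted p = 0.00318). The lower one was Mxd4, a Max partner that opposes Myc, which fell by 0.94 ± 0.12 (adjusted p = 1.32e-05). Myc itself read 3.63 to 3.86 at 0 h and 3.85, 3.72, 3.98 and 4.28 at 40 h. Its groups overlapped, and the difference was 0.33 ± 0.38 (adjusted p = 0.714). Among 19 p53 targets only the stress-induced inhibitor of mTORC1 Sesn1 was called; it fell by 0.89 ± 0.18 (adjusted p = 0.00259), and Mdm2 differed by 0.15 (adjusted p = 0.653).

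Of 57 ribosome biogenesis genes 2 were called higher, with a median of 0.08. They were the box C/D snoRNP protein Nop58 (0.83) and Rrs1 (0.63), which acts in the maturation of the large subunit. All 29 tested ribosomal protein genes other than Rps6 had a difference above 0, with a median of 0.27 and a range of 0.03 to 0.74, but only 3 passed the test. Those 3 were Rplp0 (0.41), Rpl37a (0.38) and Rpl41 (0.33). The count of 3 fell to 1 without liver A or C at 0 h or liver B or D at 40 h, and that of 2 biogenesis genes fell to 1 in 5 of the 8 omissions. Nop58, Rpl37a and Rpl41 had adjusted p up to 0.109, 0.178 and 0.157 without liver A at 0 h. Liver B had the highest value at 40 h for 19 of the 29 ribosomal protein genes, and also for 30 of 34 proteasome genes, of which none was called in either direction. Among 40 translation factors 1 was called, and it was lower. Its call was lost without liver A at 0 h. Of 34 endoplasmic reticulum chaperones none was called, and 1 was without liver B at 40 h.

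The acute phase list split. Of 28 genes 6 were called higher, the metallothioneins Mt1 and Mt2 among them, and 1 lower, with a median of 0.32. Lipocalin 2 (Lcn2), a siderophore-binding protein, read 7.0, 8.48, 9.24 and 7.91 at 0 h and 11.53, 11.17, 11.61 and 12.23 at 40 h. Spread at 0 h was wide, but all livers at 40 h were higher, by 3.33 ± 0.59 (adjusted p = 0.000748), and a second probe set, of the _r_at type, showed 0.36 (adjusted p = 0.118). The metallothionein genes Mt2 and Mt1, whose products bind zinc, rose by 3.36 ± 0.44 (adjusted p = 1.46e-05), or 10.3-fold, and by 3.26 ± 0.51. Mt2 read 7.87, 9.49, 8.75 and 9.04 at 0 h and 11.83, 11.23, 12.58 and 12.43 at 40 h. Serum amyloid Saa2 rose by 1.99 ± 0.49 and the leucine-rich glycoprotein Lrg1 by 1.09 ± 0.22. Saa2 lost its call without liver D at 40 h (adjusted p = 0.0893) or liver A at 0 h (0.086), and its brighter probe set, of the _f_at type, rose by 1.47.

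Saa3, a serum amyloid made by macrophages as well as hepatocytes, went the other way. It read 10.53, 11.36, 12.76 and 11.35 at 0 h and 8.80, 7.86, 9.29 and 8.10 at 40 h. Every liver at 40 h was below every liver at 0 h, and the fall of 2.90 ± 0.57 (adjusted p = 0.002) was the greatest on the array. Haptoglobin (Hp) differed by 0.35 (adjusted p = 0.18). Apolipoprotein A-IV (Apoa4) rose by 1.83 ± 0.36 (adjusted p = 0.00219), from 9.53, 11.01, 10.40 and 11.13 at 0 h to between 12.04 and 12.47 at 40 h.

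Of 18 genes of cholesterol synthesis and uptake 7 were called lower and none higher, and without the filter on dim probe sets 5 of 19 were called lower. All 18 differences were below 0, from -2.50 to -0.04, and the median was -1.31. Hmgcs1, which makes the HMG-CoA that feeds the pathway, read 9.23, 9.55, 9.66 and 8.63 at 0 h and 7.87, 7.07, 7.01 and 6.32 at 40 h. These groups did not overlap, and the gene fell by 2.50 ± 0.60 (adjusted p = 0.0122), or 5.67-fold. Squalene synthase (Fdft1) fell by 1.69, the sterol dehydrogenase Nsdhl by 1.46, mevalonate decarboxylase (Mvd) by 1.35 and lanosterol synthase (Lss) by 1.27. Liver A fell least and liver D most: over the 7 genes the livers at 40 h averaged 8.18, 7.69, 7.60 and 7.17, against 8.80 to 9.05 at 0 h. Farnesyl diphosphate synthase (Fdps) was not among the 7: its brightest probe set differed by -1.65 (adjusted p = 0.0523), and a dimmer _f_at probe set, outside the count, by -1.57 (adjusted p = 0.0364). Idi1, an isomerase of the same pathway, differed by -1.82 ± 0.61 (adjusted p = 0.0895) with groups that did not overlap. The count of 7 fell to 3 without liver B at 0 h or D at 40 h, and to 4 without liver A or C at 0 h or B or C at 40 h. The call of Nsdhl was lost in 7 omissions (adjusted p up to 0.155 without liver D at 40 h), as was that of the dimmer Fdps probe set (up to 0.133), that of Fdft1 without liver D at 40 h (0.0644) and that of Hmgcs1 without liver B at 0 h (0.0517).

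Fatty acid and triglyceride synthesis gave 4 of 23 called lower, none higher and a median of -0.36. Fatty acid synthase (Fasn) fell by 1.38 ± 0.39 (adjusted p = 0.0393) and the glycerol phosphate acyltransferase Gpam by 0.96 ± 0.24 (adjusted p = 0.0181). Liver pyruvate kinase (Pklr), a glycolytic enzyme induced by carbohydrate, read 8.67, 7.13, 8.59 and 7.32 at 0 h and 6.52, 5.97, 6.25 and 5.96 at 40 h. Livers of PHX3 were the higher ones at 0 h, the groups did not overlap, and the difference of -1.90 ± 0.26 (adjusted p = 1.97e-05) was -2.38 within PHX3 and -1.26 within PHX2. The list counts Pklr by a brighter probe set, which fell by 0.65. Thrsp, a lipogenic gene, differed by -1.77 (adjusted p = 0.121). The list count of 4 fell to 1 without liver A or C at 0 h or B at 40 h and to 2 without liver B at 0 h or C at 40 h. Fasn lost its call in 6 omissions and Gpam in 3, with adjusted p up to 0.158 and 0.0833 without liver C at 0 h.

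Bile acid genes gave 3 of 19 called lower and a median of -0.30. The sterol 12-hydroxylase Cyp8b1, which sets the share of cholic acid, read 11.46, 10.72, 11.15 and 11.04 at 0 h and 8.53, 8.5, 8.52 and 8.71 at 40 h. Its 4 livers at 40 h were close together and far below those at 0 h, and the fall was 2.43 ± 0.57 (adjusted p = 0.00995). The bile acid ligase Slc27a5 fell by 0.86 and Hsd3b7 by 0.78. Cyp7a1, the rate-limiting enzyme of the pathway, differed by -1.42 ± 0.54 (adjusted p = 0.152), with values from 6.88 to 8.62 at 0 h and from 5.65 to 7.23 at 40 h that overlapped. The count of 3 fell to 1 without liver A at 0 h, which took Cyp8b1 to an adjusted p of 0.0557, and Hsd3b7 lost its call in 6 omissions (up to 0.0956 without liver C at 40 h).

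Of 25 cytochrome P450 genes of drug metabolism 5 were called lower and none higher, with a median of -0.20. Among them were Cyp2f2 (a fall of 0.96), Cyp4b1 (0.89) and Cyp2d10 (0.52), and the abundant Cyp2e1 differed by -0.07 (adjusted p = 0.761). Urea cycle and amino acid catabolism gave 5 of 41 lower and 1 higher, with a median of -0.33. Otc, which makes citrulline in the urea cycle, fell by 0.92 ± 0.19, the cysteine dioxygenase Cdo1 by 0.89 ± 0.17 and the betaine methyltransferase Bhmt by 1.03 ± 0.31. The tryptophan dioxygenase Tdo2 was not counted, since its brightest probe set differed by -0.65 (adjusted p = 0.0525), while a dimmer one fell by 1.05 ± 0.26. Arginase (Arg1) rose by 0.45 ± 0.13, and Cps1, the entry enzyme of the cycle, differed by -0.12 (adjusted p = 0.805). Liver omissions moved both counts: the P450 count fell to 3 in 7 of 8 omissions, and the 5 lower urea and amino acid genes fell to 2 without liver A or C at 0 h. The call of Cyp2f2 was lost in all 8 omissions, with adjusted p from 0.0511 to 0.163, and those of Bhmt and Arg1 in 6 each, with adjusted p up to 0.176 (liver C at 40 h) and 0.215 (liver A at 0 h), and that of the dimmer Tdo2 probe set without liver A at 40 h (0.0508).

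Among other metabolic regulators, the clock repressor Nr1d1 fell by 1.04 ± 0.27 (adjusted p = 0.0201), from between 7.90 and 8.02 to 6.49, 7.26, 6.73 and 7.04, as the only call among 16 clock genes. The sources used here do not give the hour of day at which livers were taken. The growth hormone receptor (Ghr) fell by 0.81 ± 0.18 and the fatty acid hydroxylase Cyp4a12b by 1.22 ± 0.29. Gsta2, a glutathione transferase, fell by 1.24 ± 0.27, and lactate dehydrogenase A (Ldha) rose by 0.65 ± 0.14. Nr1d1 and Cyp4a12b lost their calls in 4 and 2 omissions (up to 0.0732 without liver A at 40 h, and 0.0674 without liver A at 0 h). Of 27 hepatocyte transcription factors 1 was called, Cebpb. Cebpa, the factor linked to the quiescent hepatocyte, differed by -0.97 ± 0.29 (adjusted p = 0.0558) and passed without liver A (0.0446) or C (0.0464) at 40 h. Plasma proteins and apolipoproteins gave 7 of 56 lower and 2 higher, with complement C2 (a fall of 0.94) and prekallikrein (Klkb1, a fall of 0.92) among the former. The 7 fell to 2 without liver C at 0 h or D at 40 h and to 4 without liver A or B at 0 h or B at 40 h. C2 lost its call without liver C at 0 h (0.0682) or D at 40 h (0.0623) and Klkb1 in 7 omissions (up to 0.121 without liver D at 40 h).

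Among the 20 greatest falls were also the methyltransferase Inmt (2.36 ± 0.61), the leucine zipper protein Tsc22d1 (2.19 ± 0.39), Cited2, which binds the coactivators CBP and p300 (1.61 ± 0.25), the pyruvate dehydrogenase kinase Pdk1 (1.35 ± 0.20) and Hgfac, the protease that activates hepatocyte growth factor (1.22 ± 0.18). Tsc22d1 read 8.78 to 8.90 at 0 h and 6.90, 5.92, 6.53 and 7.23 at 40 h, with no overlap. Inmt lost its call without liver A (0.102) or C (0.0888) at 0 h or D at 40 h (0.125). Named after their values had been seen, the cytoskeletal actin Actg1 rose by 1.67 ± 0.38, the methyltransferase Nnmt by 1.42 ± 0.34 and the chaperone Hsp90aa1 by 1.08 ± 0.27. Nnmt lost its call without liver A at 0 h (0.0811) or D at 40 h (0.0585), and Hsp90aa1 in 3 omissions (up to 0.0772 without liver B at 40 h).

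Interferon response genes gave 6 of 37 called lower, none higher and a median of -0.36. Cxcl9, a chemokine induced by interferon gamma, read 7.44, 6.77, 7.53 and 6.65 at 0 h and 5.23, 4.87, 5.41 and 4.18 at 40 h. These groups were over 1 unit apart, and the fall was 2.15 ± 0.48 (adjusted p = 0.00702). Ifi47, an interferon-induced GTPase, fell by 0.95, and the class I MHC genes H2-K1 and H2-D1, whose probe sets can match each other's transcripts, by 0.56 and 0.53. Liver D was the lowest at 40 h for 32 of the 37 genes, and the list median was -0.16 within PHX3 and -0.86 within PHX2. Without liver D the count of 6 fell to 2, without liver A, C or D at 0 h to 3, and H2-K1 lost its call (0.0737). Calls of Ifi47 and H2-D1 were lost in 5 omissions each (up to 0.104 without liver B, and 0.181 without liver D, at 40 h).

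Markers of other cell types were compared next. In bulk tissue fewer cells of a type and less RNA per cell cannot be told apart. Of 20 Kupffer cell and macrophage markers 2 were called lower, the scavenger receptor Msr1 (a fall of 0.67) and the mannose receptor Mrc1 (0.62), 18 of 20 were below 0 with a median of -0.26, and the complement genes C1qa and C1qc differed by -0.36 and -0.21 without a call. Their mean over the list was 7.41 to 7.65 at 0 h and 6.97 to 7.46 at 40 h. Of 16 endothelial markers 2 were called lower, the receptors Flt4 (0.44) and Kdr (0.33), and the list mean was 6.34 to 6.41 at 0 h and 6.15 to 6.29 at 40 h. None of 11 T and NK cell, 10 B cell, 9 MHC class II, 25 stellate cell or 6 cholangiocyte markers was called in either direction. The neutrophil list had 1 call of 11, Prtn3 (a rise of 0.77), which read 7.89, 7.26, 8.39 and 6.87 at 40 h, so that liver D lay within the 0 h range of 6.74 to 6.93. Flt4 lost its call without liver D at 40 h (0.0574), Kdr in 4 omissions (up to 0.0677 without liver B at 40 h) and Prtn3 in 5 (up to 0.122 without liver C at 40 h).

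Globin transcripts were higher at 40 h. Hba-a1 read 10.36, 8.91, 9.62 and 9.71 at 0 h and 12.37, 11.46, 12.10 and 11.47 at 40 h, and Hbb-b2 read 6.52, 5.07, 6.26 and 5.63 at 0 h and 8.69, 7.68, 8.58 and 7.58 at 40 h. These groups did not overlap for either gene, and they rose by 2.23 ± 0.59 (adjusted p = 0.0244) and 2.16 ± 0.56 (adjusted p = 0.0224). The other 15 of 17 erythroid markers were not called, among them Alas2, the erythroid enzyme of haem synthesis, which differed by -0.73 (adjusted p = 0.441). The part of blood or of red cell precursors in this was not tested. Both globin calls were lost without liver B or C at 0 h or A or C at 40 h, with adjusted p up to 0.0845 and 0.0723 without liver B at 0 h.

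To place 40 h in the course of regrowth, it was set against the same genotype at 20 h and 30 h. Comparisons of 20, 30 and 40 h with 0 h share their 0 h livers, so their values are given side by side. Rrm2 differed from 0 h by 0.04 at 20 h, 1.07 at 30 h and 2.76 at 40 h, and Cdc20 by -0.06, 0.31 and 2.17. Mt2 differed by 3.82, 3.88 and 3.36, Hmgcs1 by -2.24, -2.31 and -2.50 and Cyp8b1 by -1.40, -1.42 and -2.43. Against 0 h, 682 probe sets were called at 20 h (7.37%) and 290 at 30 h (3.14%), where the median SD among 4 livers was 0.174 and 0.186.

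Direct tests of 40 h against 30 h called 94 probe sets (1.02%), 88 higher (0.951%) and 6 lower (0.0649%). With array weights the balance was 334 higher to 234 lower. Of the cell cycle lists, 14 of 24 mitotic regulators, 11 of 29 spindle, 9 of 28 chromosome, 8 of 32 fork, 5 of 15 licensing and 4 of 23 nucleotide genes were higher at 40 h than at 30 h, and none was lower. The greatest of these rises were those of D17H6S56E-5 (2.22), Stmn1 (2.06), Cdc20 (1.85, adjusted p = 1.84e-06), Rrm2 (1.69) and Cdk1 (1.61). Foxm1, not called against 0 h, was 0.35 above its 30 h level (adjusted p = 0.02), and Tk1 was 1.14 above its own. Each of these steps was greater than the difference of the gene from 0 h at 40 h. The fitted levels of Foxm1 and Tk1 at 30 h were therefore below those at 0 h. The 6 lower probe sets included Mxd4 (a fall of 0.56) and Cyp2d10 (0.38). No gene of the cholesterol, fatty acid, bile acid, acute phase or interferon lists was called between 30 h and 40 h. At the 1.02% called over all probe sets, lists of this size would hold few calls or none. The absence of a call does not show equal levels at 30 h and 40 h. With the 8 arrays of these groups fitted alone, 0 probe sets passed, and without liver A at 40 h 62 did. Against 20 h, 536 were called (5.8%), 246 higher (2.66%) and 290 lower (3.14%), and this count ranged from 231 without liver A at 40 h to 1020 without liver D. It was 250 without liver B and 236 without liver C at 40 h.

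**Figure D4:**
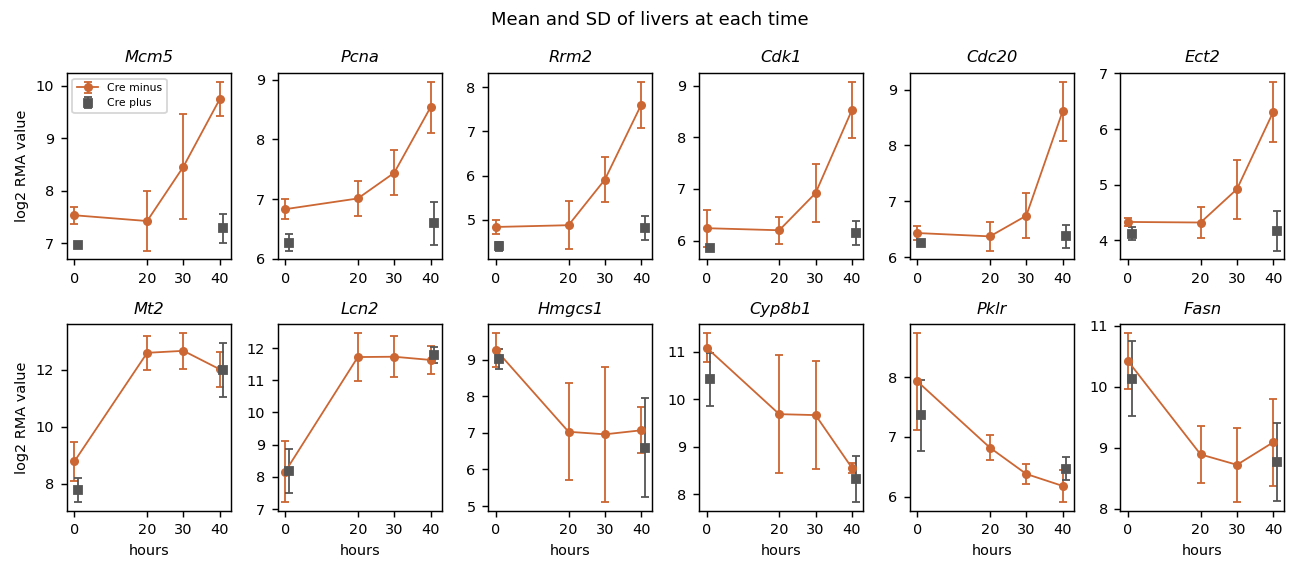
Mean log2 RMA value with SD (error bars) of 12 genes at 0, 20, 30 and 40 h in Cre minus livers (orange circles, n = 4 each) and at 0 and 40 h in Cre plus livers (grey squares, n = 4 and 5, drawn 1 h to the right). Cdc20 differed from 0 h by 0.31 at 30 h and by 2.17 at 40 h, Rrm2 by 1.07 and 2.76, whereas Mt2 and Lcn2 were already high at 20 h.

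Cre plus livers, in which Rps6 had been deleted, were compared over the same 40 h against their own 0 h livers. In them 893 probe sets were called (9.66%). The difference between genotypes in the change from 0 to 40 h was called for 54 probe sets (0.584%), all of them lower in Cre plus (0.584%), with 563 at an unadjusted p under 0.05. With array weights 52 of 185 calls were higher in Cre plus. Rrm2 went from 4.4 ± 0.1 (SD, n = 4) to 4.81 ± 0.27 (SD, n = 5) in Cre plus livers, against 4.84 ± 0.16 to 7.60 ± 0.52 in Cre minus livers. The difference between these changes was -2.35 (95% interval -3.14 to -1.56, adjusted p = 0.00101). Cdk1 changed by 0.29 in Cre plus livers and 2.30 in Cre minus livers, a difference of -2.01 (adjusted p = 0.00101). For Cdc20 the difference was -2.05, for Stmn1 -2.63, for Ect2 -1.92, for Aurka -1.87, for Mcm5 -1.87 and for D17H6S56E-5 -3.07. By list, 10 of 29 spindle, 8 of 24 mitotic, 7 of 28 chromosome, 6 of 32 fork, 4 of 15 licensing, 2 of 23 nucleotide and 1 of 23 G1 genes differed between genotypes. Within PHX3 alone 26 probe sets were called, 3 of them higher in Cre plus, and within PHX2 alone 1, which was higher.

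The same test called none of the genes in the cholesterol, fatty acid, bile acid, P450, urea, acute phase or interferon lists. Mt2 changed by 4.26 in Cre plus livers and 3.36 in Cre minus livers, a difference of 0.91 with a 95% interval of -0.34 to 2.15. Hmgcs1 changed by -2.54 and -2.50, with an interval of the difference of -1.72 to 1.65. Cyp8b1 changed by -2.05 and -2.43, with an interval of -1.22 to 1.98. These intervals are wide, and a p above the threshold does not show equal change. Globins, which rose in Cre minus livers, differed by -0.41 for Hba-a1 and -0.20 for Hbb-b2 in Cre plus livers, and their difference between genotypes was not called (adjusted p = 0.258 and 0.354).

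**Figure D5:**
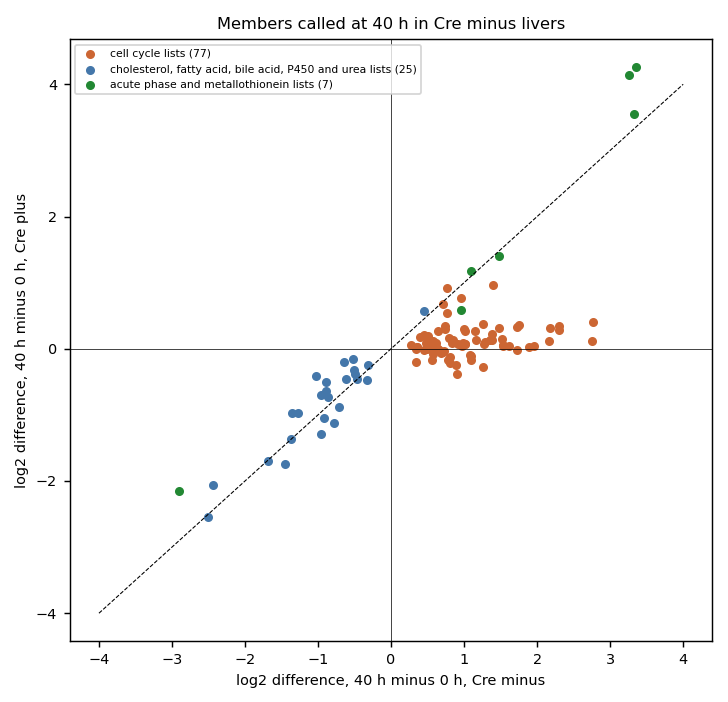
Log2 difference, 40 h minus 0 h, in Cre minus livers (horizontal) and in Cre plus livers (vertical) for genes called in Cre minus livers, from the cell cycle lists (orange), lists of liver metabolism (blue) and the acute phase and metallothionein lists (green). The dashed line marks equal change. Cell cycle genes lay mostly below the line, with Rrm2 at 2.76 and 0.41, whereas Hmgcs1 lay on it at -2.50 and -2.54. The genes were chosen by the values on the horizontal axis.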

How the data were processed

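Total RNA of 32 liver samples was measured on a 1-colour Affymetrix array, and the authors deposited log2 values; the submitters' processing notes name RMA. The sources used here name neither the RMA version nor whether batches were normalized jointly. Of 12488 probe sets, 66 were controls; 10833 of the other 12422 had 1 gene in the platform annotation, 396 had several and 1193 were unnamed here. Probe sets that exceeded the 30th percentile of an array on 3 or more arrays were tested with limma 3.58.1 in R 4.3.3, with 8 groups and batch as terms (23 residual degrees of freedom), 2-sided, with Benjamini-Hochberg adjustment. Precision is limited by the number of arrays. A list counts each gene once, by its probe set of highest mean level. Gene lists and members were chosen with earlier results of these data known. Genes named came from a core set, the 20 highest and 20 lowest called differences with the same sign in both batches, up to 6 called and 3 uncalled members of a list, the 8 most negative and most positive called genotype and 30 h differences, and second probe sets that disagreed. Another 9 were added, and the text kept a part of those the rule gives, after values were seen. Lists not mentioned further had at most 3 calls. Alternatives covered arrays in the fit, batch, filters, scaling, array weights, eBayes trend, replicate block and omission of each liver.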

Additional observations from a re-analysis of the deposited data

Results flagged for a closer look

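In 13 of 274 groups of 4 livers looked at, 1 liver stood apart from the other 3, by Dixon's test of its gap to the nearest of them as a share of the whole range. Chance alone flags about 1 group in 20, which is close to the share found. That share was 0.879 for Mcm3 at 0 h (liver C), 0.926 for Mcm7 at 40 h (liver C), 0.914 for Mad2l1 at 0 h (liver C), 0.868 for Ccnd1 at 0 h (liver A), 0.885 for Brca2 at 0 h (liver C), 0.893 for Nsdhl at 0 h (liver A) and 0.877 for Cyp8b1 at 40 h (liver D). It was 0.878 for Otc at 0 h (liver D), 0.962 for H2-K1 at 0 h (liver C), 0.907 for H2-K1 at 40 h (liver D), 0.928 for H2-D1 at 40 h (liver D), 0.868 for Inmt at 0 h (liver A) and 0.846 for Kif20a at 40 h (liver D). Liver D at 40 h, the only one of its group in PHX2, was the liver apart for Cyp8b1, H2-K1, H2-D1 and Kif20a. Liver C at 0 h was apart equally often, for Mcm3, Mad2l1, Brca2 and H2-K1.

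The change from 0 to 40 h differed between genotypes, by the interaction term of limma, for 32 of the 137 genes named. Over the array it was called for 54 of 9249 probe sets (0.584%). Many of the genes were named for their rise in these Cre minus livers or for this difference itself. The 32 are therefore no independent support. The change in Cre plus livers minus that in Cre minus livers, on the log2 scale, was -1.87 for Mcm5, -1.48 for Cdc6, -0.88 for Cdt1, -1.39 for Pcna, -1.25 for Rfc4, -1.20 for Uhrf1, -2.35 for Rrm2, -1.18 for Rrm1, -2.01 for Cdk1, -2.05 for Cdc20, -1.87 for Aurka, -1.75 for Mad2l1, -1.48 for Nek2, -1.22 for Birc5, -1.17 for Ccnb2 and -0.77 for Ccna2. It was -2.63 for Stmn1, -1.92 for Ect2, -1.20 for Kif2c, -1.27 for Cdca8, -1.95 for H2ax, -1.56 for Smc2, -1.54 for H2az1, -1.03 for Top2a, -0.82 for Cdkn2c, -1.43 for Fignl1, -3.07 for D17H6S56E-5, -1.32 for Kif20a, -1.24 for Nusap1, -1.15 for Dtl, -1.16 for Plk4 and -1.25 for Tcf19. All of these values are below 0, as are those of all 54 probe sets called.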

How the results depend on the processing

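The 441 probe sets called at 40 h against 0 h became 887 with the 8 arrays of those groups alone, 3 within PHX2 and 1965 with array weights, and 241 to 401 when 1 liver was left out. The 54 differences between genotypes became 26 within PHX3 (3 higher), 1 within PHX2 (higher), 30 with a filter above the array median and 185 with array weights (52 higher and 133 lower in Cre plus), and 37 to 69 when 1 liver was left out. Of 94 calls against 30 h, 0 were left in limma with 8 arrays alone (481 at an unadjusted p under 0.05), 47 within PHX3, 0 within PHX2, 47 with the stricter filter, 568 with array weights (334 higher and 234 lower), 52 without those arrays whose correlation with their group was under 0.95 (chosen after seeing the data), and 62 to 121 when 1 liver was left out. The 536 calls against 20 h became 1486 within PHX3, 4 within PHX2, 2266 with array weights, 920 without the arrays of low correlation, and 231 to 1020 when 1 liver was left out. The causes were not tested, apart from the fewer arrays in some fits. Within PHX2, with 1 liver at 40 h, the sign turned for Tk1 (-0.08), Foxm1 (-0.09), Mki67 (-0.27) and Cps1 (0.01). The labels give the liver letters no meaning. Deviations of same-lettered livers at 0 h and 40 h correlated at 0.10 for A, -0.03 for B, 0.05 for C and -0.15 for D. No reference from differently lettered livers was made, so these values cannot settle whether the letters pair the samples. The replicate block gave 414, 43, 83 and 574 calls in the same order of comparisons. Precision is limited by the number of arrays.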
